A study of Mus musculus with 11 samples.

Results

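The comparison describes 9 of the 27 libraries of the series, 6 of tumors grown from oviduct-TBP organoids (TBP tumors) and 3 of the TBP clones kept in culture, chosen by their names in the table of counts. All 18305 genes were examined. TBP clones are oviductal organoids, that is epithelial cysts grown in basement membrane extract, from mice that express Cas9 and GFP; guide RNAs against Trp53, Brca1 and a further tumor suppressor were transfected, and clones were picked under Nutlin-3a, a drug that stops the growth of cells with working p53. The basal oviductal medium holds RSPO1, Noggin, EGF, N-acetylcysteine, B27 and A83-01, an inhibitor of the TGF-β receptor. The study by default added WNT3a and β-estradiol to it, and whether the clones had these 2 factors is not given in the sources used here. The tumors grew from transplanted clones under the skin of female NSG mice, which have no mature T, B or NK cells. All 9 libraries therefore share the edited genotype, and they differ in growth in an animal, in the host cells that a tumor takes up and in the reagent used to extract RNA (Trizol for tumors, RNeasy columns for organoids), which cannot be told apart as groups. The labels do not tie a tumor to its mouse or to its clone, the 6 tumors form 3 deposited samples of 2 and the clones a single one, so p-values measure the spread between these libraries only. For reference, values are also given for 6 libraries of organoids with no edits (3 oviductal of wild-type C57BL/6 mice, 3 of the Cas9-GFP strain). Values of 4 libraries of organoids grown from such tumors are given too: T2-epi and T4-epi, which are epithelial, and T1-mes and T3-mes, which also hold fibroblast-like cells that carry GFP. These 4 lines were derived and grown under Nutlin-3a to favor tumor cells over host cells.

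A solid tumor is a mixture. Beside the cancer cells it holds fibroblasts that make collagen, endothelial cells that line vessels, macrophages that take up debris and present antigen through MHC class II, and, under the skin, muscle, fat and epidermis of the host. Epithelial cells are held together by E-cadherin, claudins and keratins, and they can lose these and gain vimentin and fibronectin in an epithelial-mesenchymal transition (EMT). In bulk RNA, fewer cells of a type and less RNA per cell cannot be told apart.

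Total counts were 82239 in clone 1, 2052696 in clone 2 and 4531767 in clone 3, and 936348 to 3083507 in the tumors. Clone 1 was very shallow: 3 counts, the limit that a count of 0 allows, correspond to 34.1 CPM, the read count relative to the size of its library, there, to 1.61 CPM in clone 2, to 0.670 CPM in clone 3 and to 0.967 to 2.90 CPM in the tumors. All comparisons were therefore repeated without clone 1. Reads were not collapsed to molecules, so that such limits cover counting error only. A gene with no count in any clone is given as at least N-fold higher, the mean of the tumors over 3 counts in the clones pooled (0.466 CPM), where clone 3 holds 69.6% of the pooled counts and clone 1 holds 1.37%.

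The targeted gene Trp53 was read in the clones with 0, 1 and 22 counts (0, 0.535 and 4.91 CPM in clones 1, 2 and 3). In the tumors it was between 18.2 and 56.7 CPM (median 30.9), and in Cas9-GFP organoids 51.8, 34.8 and 61.1 CPM. Every tumor lay above clones 2 and 3, while the 0 counts of clone 1 allow up to 34.1 CPM, above tumors 1, 3 and 4. The log2 difference was 3.4 ± 0.67 (SE, adjusted p = 0.00338 by edgeR's quasi-likelihood test) and 3.34 without clone 1 (adjusted p = 0.00763). Over 19 alternatives the adjusted p ranged from 4.842e-06 to 0.0209. The organoids grown from tumors, which were kept under Nutlin-3a, had 5.56 CPM (T2-epi), 4.27 CPM (T4-epi), 8.07 CPM (T1-mes) and 8.96 CPM (T3-mes), below every tumor. How much of the Trp53 RNA of the tumors came from host cells was not tested.

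Of 10473 genes tested, 2105 (20.1%) were higher in tumors and 1228 (11.7%) were lower at an adjusted p under 0.05, and the median log2 difference over all genes was 0.16. When libraries were scaled to epithelial junction genes, as described further on, the split was 7518 higher and 68 lower. Without clone 1, 11333 genes were tested, with 2246 (19.8%) higher and 1631 (14.4%) lower, and 1932 and 1113 genes were called in both fits. All 6 tumors lay above all 3 clones for 1982 of the higher genes, and all 6 lay below for 859 of the lower genes. These counts cover called genes only. Of the higher genes, 505 had no count in any clone, and a 0 in clone 1 allows up to 34.1 CPM. The counts for higher and lower genes can therefore not be compared. Clone 2 mattered most for the lower genes, which numbered 772 without it.

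Genes were put into classes by libraries that took no part in the comparison. A gene was taken as not found in cultures when it had at most 3 counts in each of 10 libraries of cultured cells (6 organoids with no edits, 4 organoids grown from tumors), all grown without a host. This held for 5238 genes, 374 of them tested: 343 were higher in tumors and 0 lower. Since such a gene passes the filter on low counts through the tumors alone, the share that was called is a description. These genes held 0.0924%, 0.0599% and 0.0950% of the counts in clones 1, 2 and 3, and 2.54%, 2.33%, 1.04%, 1.47%, 3.39% and 3.21% in tumors 1 to 6. Every tumor held more than every clone, tumor 3 the least and tumor 5 the most. The class records absence from cultures only. Whether its RNA in the tumors came from host cells or from tumor cells was not tested.

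Genes found in oviductal organoids (mean of at least 10 CPM over the 6 libraries with no edits) made up a second class of 7858, of which 7684 were tested. Of these, 882 (11.5%) were higher in tumors and 1152 (15%) lower, with a median log2 difference of -0.06, and 925 and 1466 without clone 1. The 2415 tested genes between the classes held 880 higher and 76 lower genes. Of all 2105 higher genes, 776 had at least 10 CPM on average in the epithelial tumor organoids and 416 reached that level in T1-mes and T3-mes but not in the epithelial lines. The other 913 were below it in both kinds of tumor organoid.

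**Figure D1:**
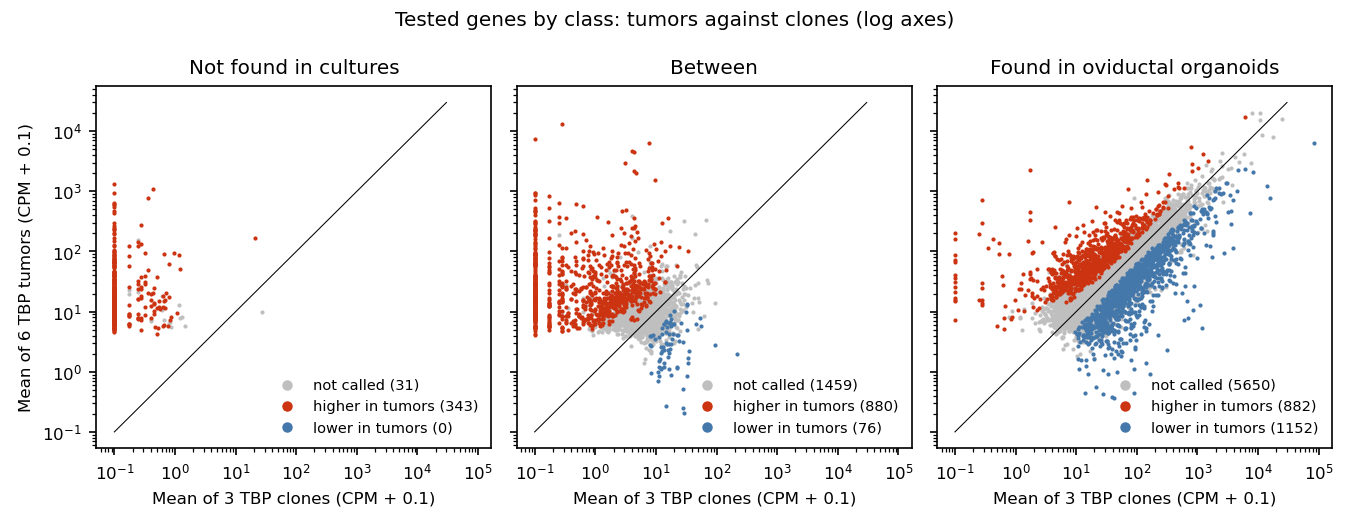
Mean CPM of the 6 TBP tumors (vertical) against mean CPM of the 3 TBP clones (horizontal) for 10473 tested genes, on log axes after adding 0.1, in panels for genes not found in cultures, genes between the classes and genes found in oviductal organoids; red genes were higher and blue genes lower in tumors, and the line marks equal levels. The 374 genes not found in cultures lie above the line with few exceptions, whereas genes found in organoids spread to both sides, with 882 higher and 1152 lower.

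Genes of connective tissue rose in every tumor. Of 20 fibroblast markers 20 were higher, with a median log2 difference of 11.77 (9.53 with genes absent from the clones held at their bound). Their summed level was 45.4, 8.56 and 4.02 CPM in clones 1 to 3 and lay between 18109 CPM in tumor 5 and 73052 CPM in tumor 4 (median 30241 CPM). Type III collagen, Col3a1 (chr1:45311538-45349706, GRCm38), had 1 count in the clones and 5535 to 28047 CPM in the tumors (median 11160.1), a ratio of 85414 to the pooled clones (95% exact Poisson interval 15330 to 3373700). Type I collagen, Col1a2 (chr6:4504814-4541544), had no count in any clone and 1632 to 15221 CPM in the tumors (median 5225), at least 15697-fold higher (adjusted p = 0.000175).

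The fibroblast genes were not all alike in the cells grown back from tumors. Decorin, Dcn, a proteoglycan that binds collagen fibrils, was 165 to 841 CPM in the tumors (median 556), and 507 CPM in T1-mes and 1138 CPM in T3-mes, within or above the range of the tumors. Pdgfra, a receptor of fibroblasts, gave 41.9 to 221 CPM in the tumors and 254 and 244 CPM in the mes lines, above every tumor. Thy1, a surface marker of fibroblasts, was 83.1 to 459 CPM in the tumors (median 159) and 0.448 and 0 CPM in the mes lines, and Postn (periostin, a matrix protein of activated stroma) was 455 to 1230.3 CPM against 0 and 5.66 CPM. All 4 genes were at or near 0 in the epithelial lines (0 to 15.7 CPM), and summed over the list those lines had 48.6 and 141 CPM against 4713 CPM in T1-mes and 10130.0 CPM in T3-mes. Thy1 and Postn were thus near 0 in every line grown from tumors, and Dcn and Pdgfra only in the epithelial ones. Whether host fibroblasts or tumor-derived mesenchymal cells made the RNA of these 4 genes in the tumors was not tested.

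Macrophage genes rose in every tumor. Of 22 markers, 20 were higher, 12 of them with no count in any clone, and the median log2 difference was 8.37 (7.43 with bounds). Clones 1, 2 and 3 had 454, 428 and 99.1 CPM over the list, mostly from Cd14, which stood at 334 CPM on average in organoids with no edits, and the tumors 4472, 6911, 2236, 2582, 3739 and 4391 CPM. Cd14 itself, a receptor for bacterial lipid, had 375, 382 and 69.9 CPM in the clones and 71.9 to 578 CPM in the tumors and did not pass the test (adjusted p = 0.882). C1qc (chr4:136889804-136893065) and C1qb, chains of the first complement component that macrophages secrete, were at 0 in all clones and all tumor organoids; C1qc was 246 to 1243 CPM in the tumors (median 646), at least 1390.2-fold higher (adjusted p = 0.000121), and C1qb 178 to 1089 CPM, at least 1302-fold higher. Ctss, a lysosomal protease that trims antigens, was 204 to 800.0 CPM in the tumors (median 451), at least 949.8-fold higher. Among the tumors, tumor 2 was highest and tumor 3 lowest for each of these 3 genes.

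Antigen presentation through MHC class II followed the same tumors. Of 7 genes 6 were tested and 4 rose (H2-Aa, H2-Ab1, H2-Eb1 and the invariant chain Cd74). Their list summed to 56.8, 42.3 and 63.9 CPM in the clones and to 526 CPM (tumor 3) to 3472 CPM (tumor 2) in the tumors, with 62 and 24.2 CPM in the epithelial and 5.38 and 17 CPM in the mes organoids. H2-Eb1, a β chain of the presenting receptor, was at 0 in every clone and 174 to 1305 CPM in the tumors (median 674), at least 1558.8-fold higher.

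Other white cells divided the tumors. For neutrophils, 6 of 7 tested markers were higher, but the number fell to 0 without clone 2 or clone 3, to 3 without tumor 1 and was 4 without clone 1. The list summed to 0, 0.535 and 9.82 CPM in the clones and to 1358, 57.9, 1659, 495, 30.6 and 56.1 CPM in tumors 1 to 6, so that tumors 1 and 3 were high and tumors 2, 5 and 6 low. S100a8, a calcium-binding protein that fills neutrophils, was 1.93 CPM in tumor 5 and 600.2 CPM in tumor 3 (median 110.0). Mast cell markers were at 0 in every clone and every tumor organoid and summed to 17.5 to 198 CPM in the tumors (median 75.1), with 4 of 4 tested genes higher, and 2 without clone 2 or clone 3. Markers of T, B and NK cells summed to 0, 16.6 and 9.60 CPM in the clones and to 9.66 to 26.8 CPM in the tumors, which overlap. Of the 14 genes found among the counts, 8 had no count in any tumor, among them Cd3e, Cd8a, Ms4a1 and Ncr1, and only Cd4, which mouse macrophages can also express, was tested and higher (2.90 to 21.3 CPM, 0 in all clones).

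Markers of vessels and of smooth muscle rose in the tumors. Of 13 tested endothelial markers 11 were higher, with sums of 11.4, 15.5 and 47.1 CPM in the clones and 179 to 381 CPM in the tumors (median 259.6). Pecam1, a junction protein of vessel lining, was at 0 in every clone and tumor organoid and 14 to 35.3 CPM in the tumors, at least 51.5-fold higher. Of 9 tested smooth muscle and pericyte genes 8 rose, 5 without clone 3. Acta2, smooth muscle actin, which activated fibroblasts make too, was at 0 in the clones and 168 to 795 CPM in the tumors (median 511), at least 1036-fold higher. It had 4.93 CPM in T1-mes and 3.77 CPM in T3-mes, below every tumor.

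Markers of skeletal muscle, fat, blood and skin also varied widely between tumors. Skeletal muscle markers summed to 0, 31.6 and 53.6 CPM in the clones and to 3779, 849, 151, 1678, 29010.0 and 11639 CPM in tumors 1 to 6; 11 of 12 were higher, 8 without clone 1, 7 without clone 2 and 4 without clone 3. Acta1 (skeletal muscle actin), Tnnt3 (fast troponin T), Myh4 (fast myosin) and Car3 (a carbonic anhydrase of muscle and fat) had no count in any clone. Tnnt3 was 17.2 to 3698 CPM (median 313), at least 2016-fold higher, Acta1 12.8 to 1688 CPM (median 241), at least 1163-fold, and Car3 8.08 to 1623 CPM (median 218), at least 1026-fold. Myh4 was 2.36 to 2511 CPM (median 128), at least 1247-fold higher, with an adjusted p of 0.0202 that rose to 0.0688 without clone 2 and to 0.0802 without clone 3 and was as low as 6.478e-09 over the 19 alternatives. Tumor 5 was highest and tumor 3 lowest for all 4 muscle genes, and without tumor 5 the limits were 833-fold for Tnnt3, 671-fold for Acta1, 534-fold for Car3 and 419-fold for Myh4. Beta-s, a β-globin chain of red cells, was at 0 in the clones and 335.6, 127, 135, 361, 210.3 and 6846 CPM in tumors 1 to 6, at least 2866-fold higher (adjusted p = 0.00952). Without tumor 6 this limit was 502-fold, and DESeq2 gave no p for the gene.

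Adipocyte markers had 3 of 4 tested genes higher, and 1 without clone 2 or clone 3; tumor 1 had 1108 CPM over the list, the other tumors 60.6 to 265 CPM, and the clones 34.1, 8.56 and 2.23 CPM. The keratins of the basal epidermis, Krt5 and Krt14, were the only 2 of 8 tested epidermal genes that rose, a share close to the 20.1% of all tested genes. The number was 1 without clone 1, tumor 2 or tumor 4, 0 without clone 2 or clone 3, 4 without tumor 5 and 5 in tumors 1 to 4 alone. Krt14 had no count in any clone and 0.967 to 759 CPM in the tumors (median 122), with tumor 5 lowest and tumor 4 highest. The list of epidermal genes summed to 1383 CPM in tumor 2 and 1749 CPM in tumor 4, but to 6.13 CPM in tumor 5 and 46.9 CPM in tumor 6, within or below the 18.8 to 68.1 CPM of the clones, and to 534 CPM in T1-mes. Whether Krt5 and Krt14 were of host skin or of tumor cells was not tested.

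**Figure D2:**
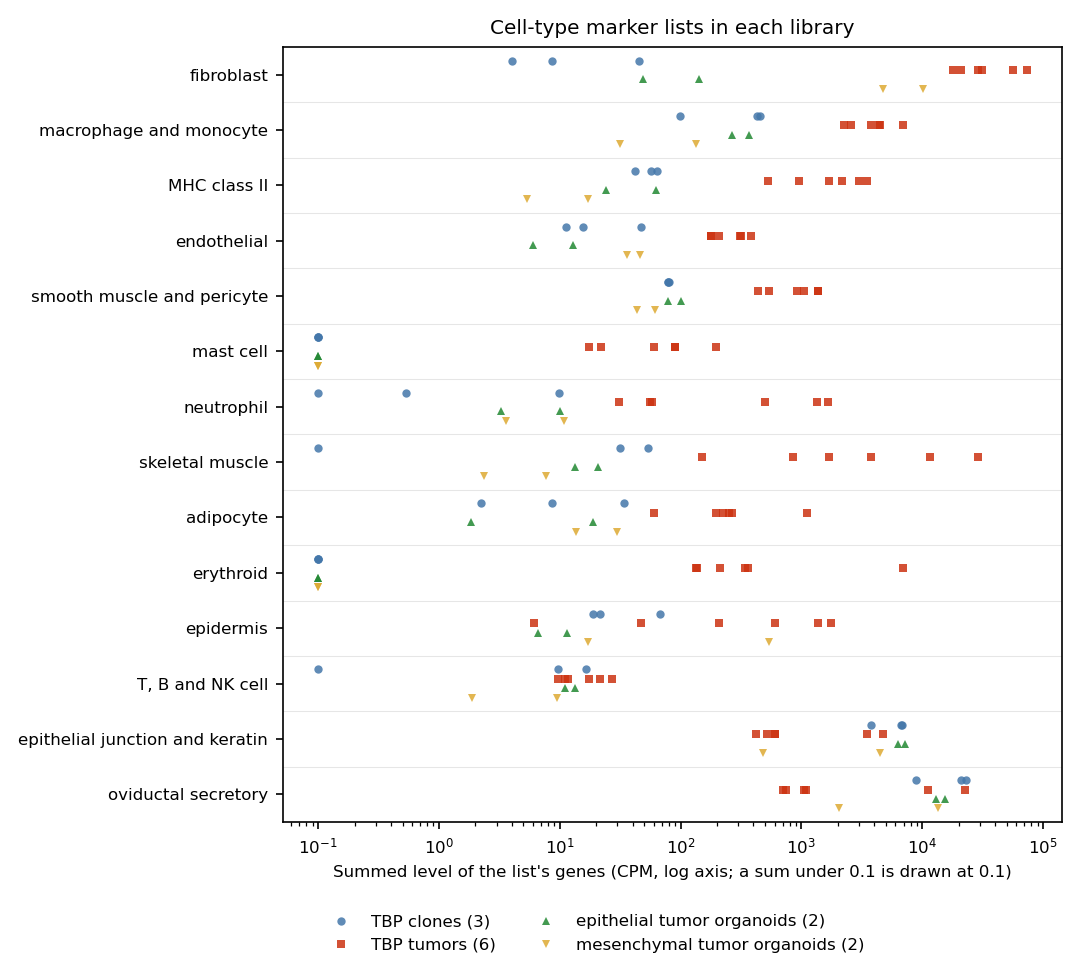
Summed CPM of cell type marker lists (log axis) in each of the 3 TBP clones (blue circles) and 6 TBP tumors (red squares), with the epithelial (green triangles) and mesenchymal (yellow inverted triangles) tumor organoids beside them. Fibroblast markers were 18109 to 73052 CPM in the tumors and at most 45.4 CPM in the clones, skeletal muscle ranged from 151 to 29010.0 CPM among the tumors, and T, B and NK cell markers overlapped between the groups.

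Genes found in oviductal organoids can also rise in tumors, and the 8 with the largest differences were at or near 0 in the clones. This class does not set host RNA apart either, and which cells made the RNA of these 8 genes in the tumors was not tested. Vim, vimentin, the intermediate filament of mesenchymal cells (chr2:13573927-13582826), had 2 counts in the clones, both in shallow clone 1 (22.7 CPM), and 215 to 1188 CPM in the tumors (median 614), a ratio of 2126 to the pooled clones (interval 588 to 17553). It was 4.17 and 11.9 CPM in the epithelial and 391 and 738 CPM in the mes organoids. Ccl2, a chemokine that draws monocytes, had 1 count in the clones and 128 to 2076 CPM in the tumors (median 505), a ratio of 4535 (interval 814 to 179110) that was 2769 without tumor 6, and T1-mes had 1403 CPM. Cxcl14, another chemokine, also had 1 count in the clones and was 97.5 to 457 CPM in the tumors (median 352), a ratio of 1906 (interval 342 to 75264).

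The other 5 had no count in any clone. Prkcdbp (Cavin3), which builds caveolae, was 111 to 356 CPM in the tumors (median 151), at least 435-fold higher, Gas6, a ligand of the TAM receptors, 71.7 to 246 CPM, at least 343-fold, and Gas7, a regulator of the actin cytoskeleton, 24.9 to 132 CPM, at least 187-fold. Tceal8 was 35.7 to 145 CPM, at least 156-fold higher, and Tusc1 33 to 89 CPM, at least 144-fold higher. Tceal8 stood at 102 CPM and Tusc1 at 35.4 CPM on average in organoids with no edits, and both were at or below 0.475 CPM in the epithelial tumor organoids, so that they were low in every epithelial culture with edits. Prkcdbp and Tceal8 were present in the mes lines (122 and 207 CPM, 29.1 and 93.3 CPM), whereas Tusc1 was 0 and 3.77 CPM there.

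The EMT list moved with the fibroblast genes. Of 13 tested members 12 were higher, with a median log2 difference of 8.42 (7.95 with bounds), and sums of 102, 25.2 and 16.3 CPM in the clones, 4829.7 to 17438 CPM in the tumors, 69.9 and 176 CPM in the epithelial organoids, and 4362 CPM in T1-mes and 12962 CPM in T3-mes. Fn1, fibronectin, had 0, 1.07 and 3.80 CPM in the clones and 817 to 3973 CPM in the tumors (median 2028), a log2 difference of 9.68 ± 0.89 (adjusted p = 8.35e-05). The repressors of E-cadherin Zeb2 (27.3 to 94.7 CPM, median 54.5, a ratio of 380 with an interval of 68.1 to 14990 over 1 clone count) and Twist2 (10.4 to 101 CPM, at least 75.7-fold higher, 47.4-fold without tumor 6) rose, and both were detected in the mes organoids (35.9 and 165 CPM, 25.1 and 31.6 CPM). Twist1 did not pass the test, with 68.1, 18.7 and 0.447 CPM in the clones and 29.8 to 110.1 CPM in the tumors. In the tumors, RNA of these genes from host fibroblasts and from tumor cells cannot be told apart.

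Epithelial genes showed how unequal the tumors were. The list of junction, keratin and epithelial regulator genes summed to 3747, 6779 and 6679 CPM in clones 1 to 3, and to 3473, 602, 4731, 599.8, 422 and 520.4 CPM in tumors 1 to 6. Tumors 1 and 3 were near the lowest clone, clone 1, and the other 4 were far below it. Of 26 members 5 fell (Cldn3, Cldn4, Esrp2, Spint1 and Prss8), 0 rose and 21 did not pass the test, and the median log2 difference was -1.84. The share that fell is near the 15% of all tested genes found in organoids. The count of lower members was 4 without clone 1, 2 without clone 2 or clone 3, 3 without tumor 4 and 9 without tumor 3.

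Members that were not called varied widely among the tumors. Epcam, an adhesion molecule that marks epithelium (chr17:87635979-87651129), was 443, 583 and 476 CPM in the clones and 0 to 363 CPM in the tumors (median 10.7), all below the clones, with a log2 difference of -2.34 ± 1.40 (adjusted p = 0.225). Cdh1, E-cadherin, was 375, 872 and 825 CPM in the clones and 4.19 CPM (tumor 5) to 775 CPM (tumor 3) in the tumors, which overlap (adjusted p = 0.406). Among called genes, Cldn4, a tight junction claudin, was 182, 193 and 303 CPM in the clones and 3.55 to 82.1 CPM in the tumors (median 10.4), and fell by 2.86 ± 0.88 on the log2 scale (adjusted p = 0.0293). Spint1, an inhibitor of membrane proteases, was 182, 169.7 and 187 CPM in the clones and 0 to 35.7 CPM in the tumors, and fell by 4.07 ± 1.0 (adjusted p = 0.0105). Esrp2, a splicing factor of epithelial cells, was 11.4, 12.8 and 22.8 CPM in the clones and 0 to 3.03 CPM in the tumors, and fell by 4.09 ± 0.82 (adjusted p = 0.00368).

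**Figure D3:**
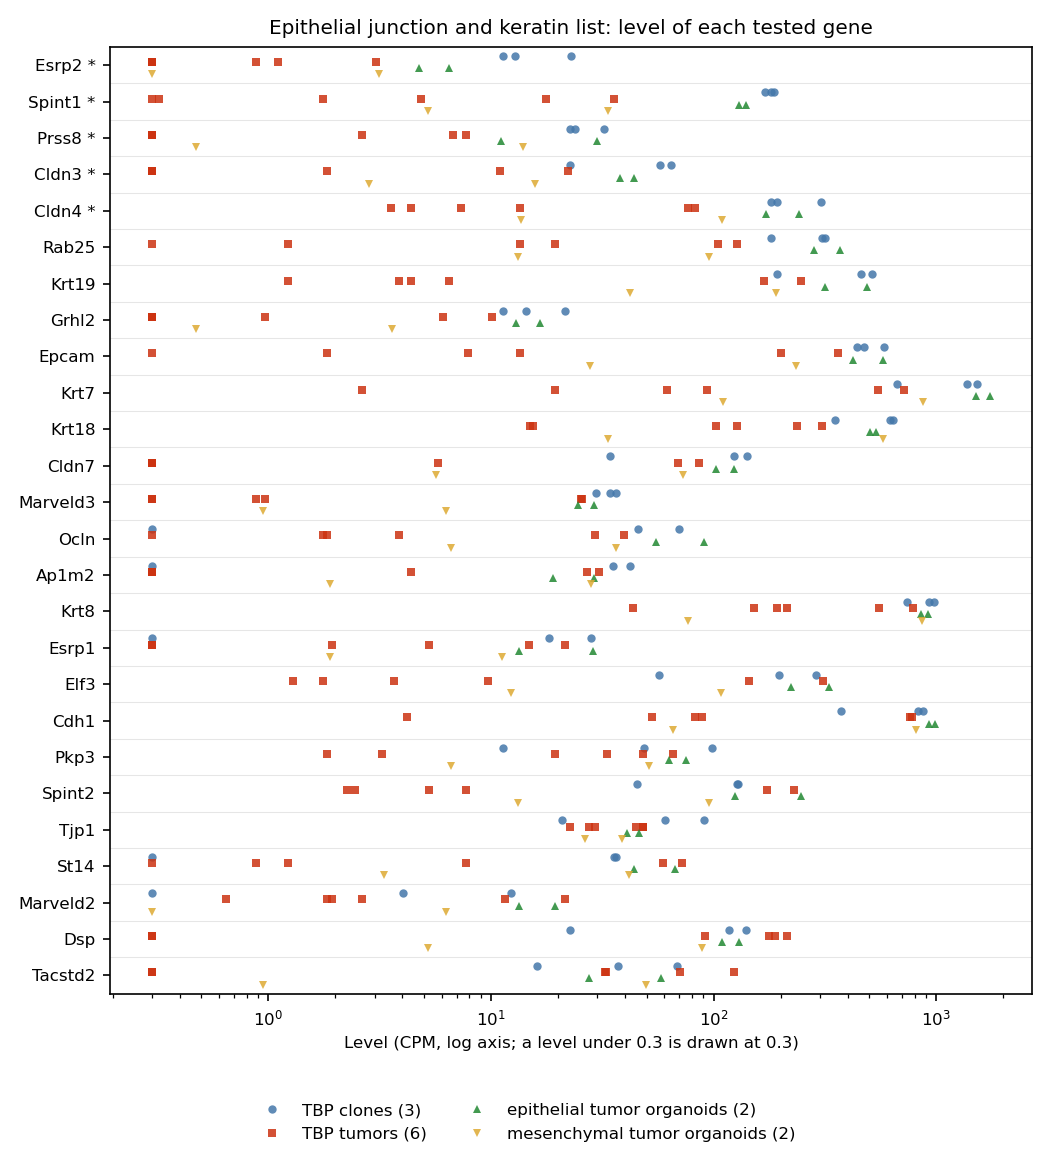
CPM of epithelial junction and keratin genes (log axis) in each TBP clone (blue circles), TBP tumor (red squares) and tumor organoid (green and yellow triangles), with an asterisk at genes called lower. Most tumors lie below the clones while tumors 1 and 3 reach toward them, as for Epcam with 443 to 583 CPM in the clones and 0 to 363 CPM in the tumors.

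Genes of the oviductal secretory cell, the cell type that makes the fluid of the oviduct, followed the same split. They summed to 23242, 20845 and 8801 CPM in the clones, to 11156 CPM in tumor 1 and 22493 CPM in tumor 3, and to 705 to 1090.0 CPM in tumors 2, 4, 5 and 6. Of 14 tested members 3 fell (Ovgp1, Pax8 and Sprr1a) and 0 rose, 2 without clone 1 and 1 without clone 3. The share that fell is near the 15% of all tested genes found in organoids. Pax8, the lineage transcription factor (chr2:24420560-24475599), was 284, 116 and 137 CPM in the clones and 0 CPM (tumor 2) to 39.4 CPM (tumor 3) in the tumors (median 12.8), and fell by 3.38 ± 0.95 (adjusted p = 0.0195, not called without clone 1). Lcn2, lipocalin, an iron carrier and the member with the widest spread, was 11116, 9430.3 and 2128 CPM in the clones and 21.6 CPM (tumor 5) to 11618 CPM (tumor 3) in the tumors and did not pass the test.

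The 8 genes with the largest decreases among genes found in organoids fell to at most 42.5 CPM in every tumor, tumors 1 and 3 included. Prap1, a secreted protein of the female tract (chr7:140093395-140097200), was 1533, 661 and 1397 CPM in the clones and 22.0, 0.877, 8.76, 0, 0 and 0 CPM in tumors 1 to 6, and fell by 7.73 ± 1.20 on the log2 scale (adjusted p = 0.000944). Slc14a1, a urea transporter, was 874, 449.6 and 792 CPM against 1.22 to 14.3 CPM in the tumors and fell by 6.4 ± 0.66 (adjusted p = 0.000137). Inmt, a methyltransferase of indolamines, was 375, 679 and 767 CPM against 0.877 to 25.6 CPM and fell by 6.31 ± 0.83 (adjusted p = 0.000401), from levels below its mean of 3051 CPM in organoids with no edits. In T2-epi and T4-epi these genes were detected, Prap1 with 70.8 and 582 CPM, Slc14a1 with 70.4 and 137 CPM and Inmt with 16.2 and 168 CPM. T1-mes and T3-mes held them too, with 180 and 15.6 CPM of Prap1, 23.8 and 32.5 CPM of Slc14a1 and 9.87 and 235 CPM of Inmt.

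Sult1d1, a sulfotransferase, was 125, 284 and 536 CPM in the clones and 0 to 6.4 CPM in the tumors, and fell by 7.03 on the log2 scale. The other 4 were the antisense gene 2900060B14Rik (68.1, 293 and 125 CPM in the clones, 0 to 1.75 CPM in the tumors) and the protein-coding genes Khdc1a (170.3, 76.0 and 21.7 CPM, 0 to 2.02 CPM), Gm3336 (170.3, 144 and 111 CPM, 0 to 5.39 CPM) and 2610528A11Rik (2623, 411 and 213 CPM, 1.22 to 42.5 CPM). None of the 8 had a tumor that overlapped a clone, a property that the choice of named genes required.

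Because the share of epithelial RNA differed between libraries, the fit was repeated with each library scaled to the summed counts of the junction and keratin list, a scaling chosen after seeing the data. This raised the median log2 difference of all genes to 3.22, with 7518 genes higher and 68 lower. All 8 genes just named were among the 68, with log2 differences of -6.86 for Prap1, -5.75 for Sult1d1, -4.75 for Inmt and -4.10 for Slc14a1. So were Krt4, a keratin of stratified epithelium (590.4, 511 and 1391 CPM in the clones, 0 to 38.0 CPM in the tumors), and Cyp1a1, an enzyme induced through the aryl hydrocarbon receptor (45.4, 20.9 and 19.6 CPM, 0 to 0.337 CPM), which were chosen here after their values were seen. Of the members of the 33 lists, only Esrp2, Spint1 and Ero1l were lower under this scaling, so that the decreases given for other list genes hold for the TMM scaling.

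Hypoxia genes fell as a group. Under low oxygen the prolyl hydroxylases stop marking HIF1α for degradation, and HIF then binds a short element, the HRE, at genes for glycolysis, vessel growth and its own feedback. Of 24 tested members of the hypoxia list 20 fell and 0 rose, 20 also without clone 1, where 11.7% of all tested genes fell. The median log2 difference was -2.08 against 0.16 over all genes. When libraries were scaled to the junction list it was +0.86 against 3.22 over all genes, so the list lay below all genes in both scalings. The list summed to 16054, 19435 and 18751 CPM in the clones and to 2129, 2889, 4642, 4019, 6112 and 3332 CPM in tumors 1 to 6. Organoids with no edits had 5392 to 13747 CPM (median 9793), below each clone, and among the tumors only tumor 5 reached that range. The sum of tumor 5 includes Aldoa, whose enzyme is abundant in muscle and whose level in that tumor is given below. T2-epi had 9644 and T4-epi 19105 CPM.

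The HRE core, ACGTG on either strand, was present within 250 bases before the start site in 12 of the 23 list genes with a promoter in the RefSeq table for GRCm38.p6 (52.2%), in 9 of the 18 that fell, and in 16.5% of all 27025 promoters. The windows below, 60 bases of RefSeq promoter sequence written 5′ to 3′ on the strand of the gene, show it for the oxygen sensor Egln3, the glycolytic enzyme Pgk1, the mitophagy receptor Bnip3 and the HIF target Ankrd37, which all fell. Capitals mark ACGTG or its reverse complement CACGT, which overlap in Bnip3, and a match is a description of the letters, not of binding. They lie at chr12:54204065-54204124 (minus strand) for Egln3, chrX:106186941-106187000 (plus) for Pgk1, chr7:138909582-138909641 (minus) for Bnip3 and chr8:45999851-45999910 (minus) for Ankrd37.
Egln3: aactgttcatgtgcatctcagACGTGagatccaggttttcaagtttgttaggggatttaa
Pgk1: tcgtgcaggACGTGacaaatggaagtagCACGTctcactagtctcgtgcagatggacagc
Bnip3: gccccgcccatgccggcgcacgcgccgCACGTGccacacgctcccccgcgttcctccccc
Ankrd37: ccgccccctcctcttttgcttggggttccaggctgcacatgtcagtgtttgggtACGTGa

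Of these genes, Egln3 was 1317, 1857 and 2202 CPM in the clones and 37.8 to 411 CPM in the tumors (median 161), and fell by 3.27 ± 0.61 on the log2 scale (adjusted p = 0.00259). Pgk1 was 3645, 3923 and 3793 CPM in the clones and 360.4 to 1018 CPM in the tumors (median 691), and fell by 2.43 ± 0.32 (adjusted p = 0.000412). Bnip3 was 976, 1666 and 766 CPM against 106 to 487 CPM, and Ankrd37 68.1, 29.4 and 51.6 CPM against 4.27 to 17.9 CPM. In all 4 genes the highest tumor was below the lowest clone.

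Vegfa, the growth factor of vessels, was 1783, 820.0 and 1303 CPM in the clones and 107 to 291 CPM in the tumors (median 223), and fell by 2.67 ± 0.38 (adjusted p = 0.000563). Adm, the vasodilator adrenomedullin, was 272, 377 and 519 CPM against 10.5 to 57.3 CPM and fell by 3.73 ± 0.50. Ero1l (Ero1a), the oxidase that forms disulfide bonds in the endoplasmic reticulum, was 3202, 2921 and 1964 CPM against 48.1 to 242 CPM (median 63.8) and fell by 4.79 ± 0.53 (adjusted p = 0.000183). Ero1l was the only member that stayed lower when libraries were scaled to the junction list (log2 difference -2.34, adjusted p = 0.0246). The 4 members that were tested and not called were Slc2a1, Car9, P4ha2 and Aldoa. Aldoa, whose enzyme is abundant in muscle, was 477, 2094 and 1813 CPM in the clones and 2164 CPM in tumor 5, the tumor with the most skeletal muscle RNA. Without tumors 5 and 6, 22 members fell. Pgk1, Ldha, Gapdh and Aldoa have near-identical pseudogenes, so that uniquely mapped reads may undercount them in every library.

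**Figure D4:**
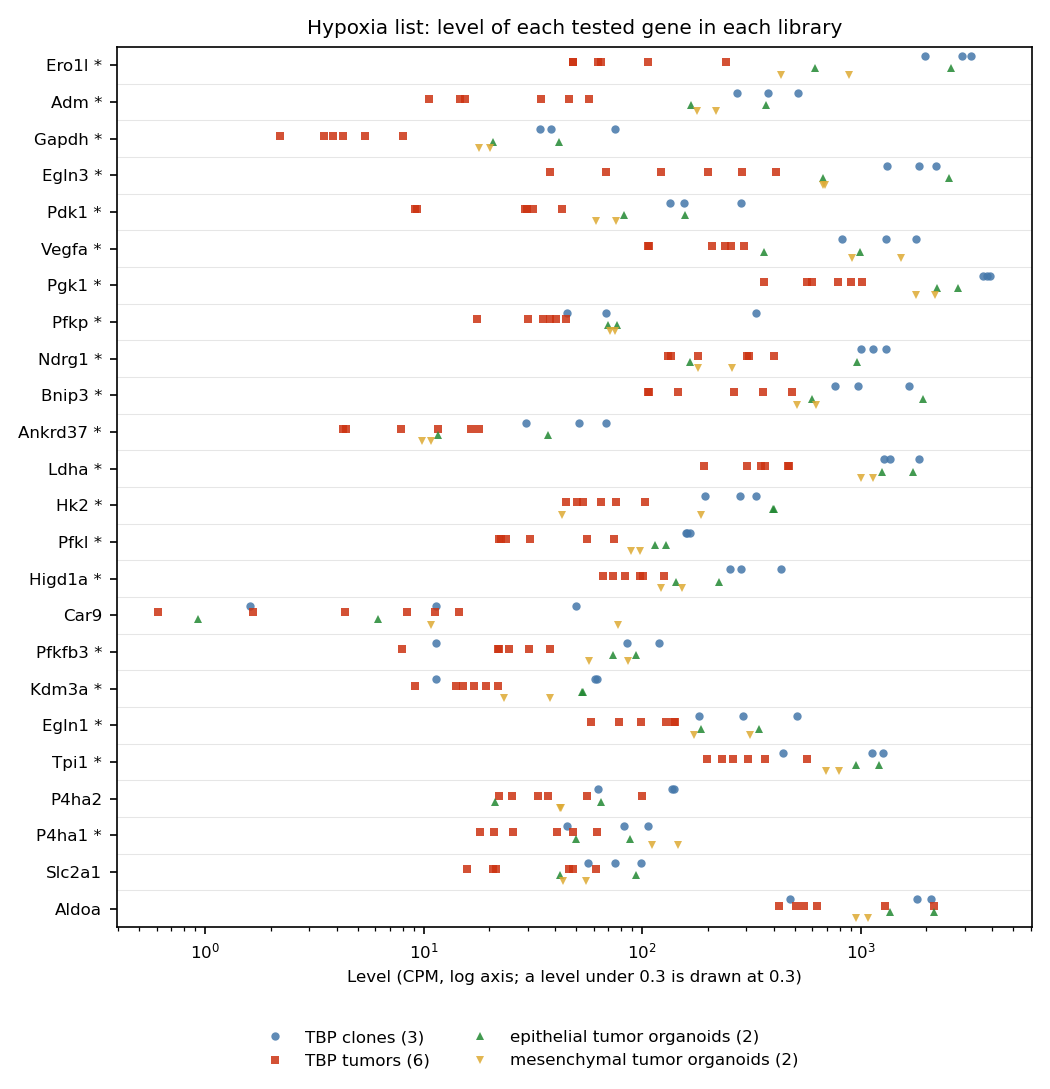
CPM of hypoxia genes (log axis) in each TBP clone (blue circles), TBP tumor (red squares) and tumor organoid (green and yellow triangles), with an asterisk at genes called lower. Of 24 tested members 20 fell, as Egln3 from 1317 to 2202 CPM in the clones to 37.8 to 411 CPM in the tumors. When libraries were scaled to the junction list, the median log2 difference was +0.86 against 3.22 over all genes.

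Genes of cholesterol synthesis, which SREBP2 turns on when sterol in the endoplasmic reticulum is low, also fell. Of 25 members 16 were lower and 0 higher, with the same counts without clone 1, where 11.7% of all tested genes were lower. The median log2 difference was -1.19 against 0.16 over all genes. When libraries were scaled to the junction list it was +1.77 against 3.22 over all genes. The sums were 1624, 1968 and 1844 CPM in the clones and 709, 1029, 873, 541, 761 and 961 CPM in the tumors, with no overlap, and 4942 CPM in T2-epi, 2537 CPM in T4-epi and 1381 CPM (median) in organoids with no edits. The count of lower members was 6 without clone 2 and 9 without clone 3. Sc4mol (Msmo1), the sterol oxidase that removes the methyl groups of lanosterol, was 420.1, 365 and 456 CPM in the clones and 53.5 to 101 CPM in the tumors (median 68.1), and fell by 2.52 ± 0.27 (adjusted p = 0.000161). Lss, which closes the sterol rings, was 45.4, 53.0 and 27.7 CPM against 0.966 to 6.09 CPM and fell by 3.72 ± 0.50 (adjusted p = 0.000417).

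Other members moved by less. Hmgcs1, an early enzyme of the pathway, was 102, 150.4 and 167 CPM in the clones and 35.7 to 85.1 CPM in the tumors (median 74.1), and fell by 1.10 ± 0.29 (adjusted p = 0.0153). Srebf2, which encodes SREBP2, was 0, 8.03 and 10.9 CPM against 10.6 to 22.8 CPM and did not pass the test (adjusted p = 0.141). The sterol response element TCACNCCAC was found before 1 of the 17 list genes with a promoter in the table (5.88%) and before 1.03% of all genes.

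**Figure D5:**
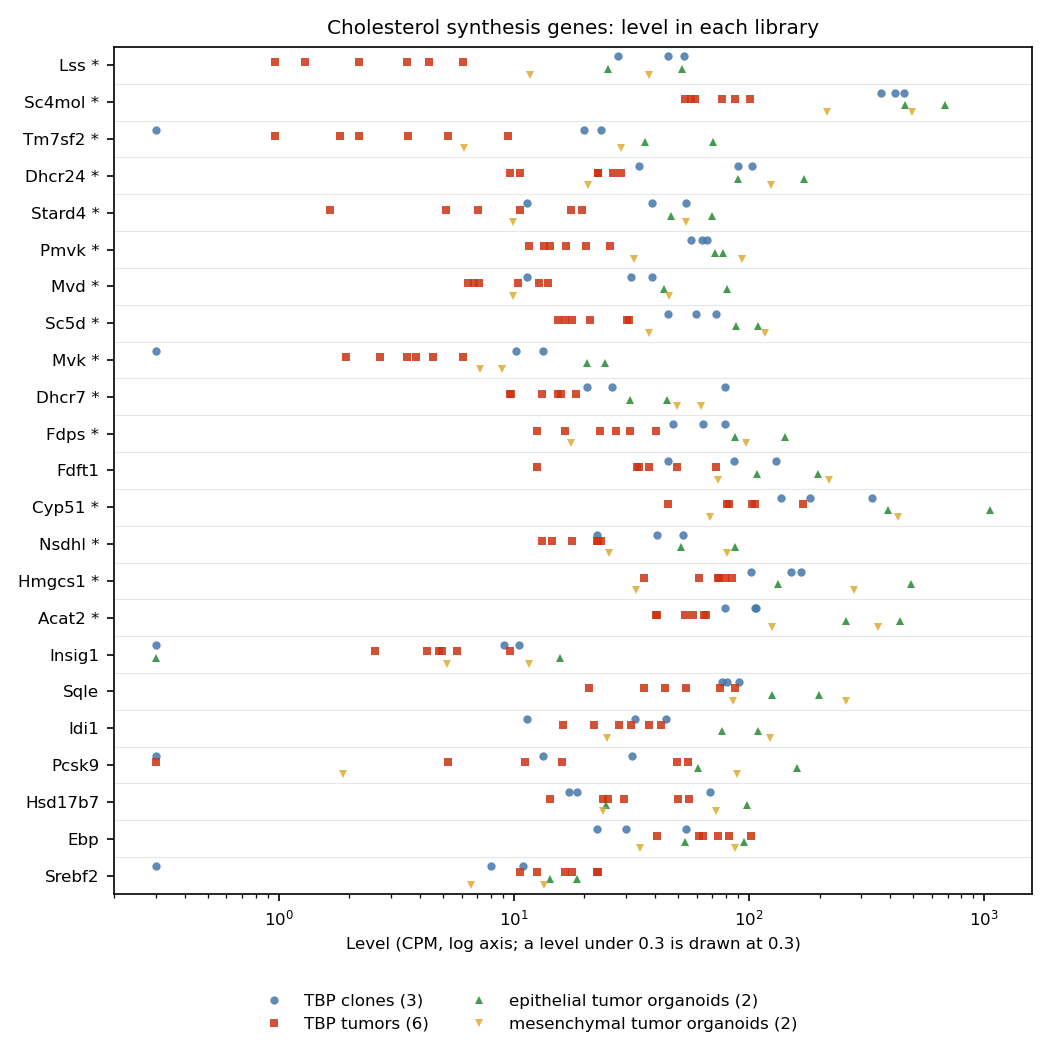
CPM of most cholesterol synthesis genes of the list (log axis) in each TBP clone (blue circles), TBP tumor (red squares) and tumor organoid (green and yellow triangles), with an asterisk at genes called lower. Of 25 members 16 fell and T1-mes, T2-epi and T4-epi had higher sums than every clone, as Sc4mol shows with 365 to 456 CPM in the clones, 53.5 to 101 CPM in the tumors and 682 CPM in T2-epi. When libraries were scaled to the junction list, the median log2 difference was +1.77 against 3.22 over all genes.

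Signaling pathways with ligands or inhibitors in the culture medium were examined by their target genes. Over all tested genes 20.1% were higher and 11.7% lower, for comparison with the counts of ERK, TGF-β, BMP and Wnt targets below. EGF acts through ERK, whose targets Dusp6, Spry2, Phlda1 and Ier3 limit or report the signal. These 4 of 11 tested members fell, while Spry1 and Etv5 rose (1 without clone 2 or clone 3), and the sums were 3758, 3061 and 3027 CPM in the clones and 667 to 1091 CPM in the tumors, with 2663 CPM in T2-epi and 3194 CPM in T4-epi. The median log2 difference was -0.40 against 0.16 over all genes, and +2.63 against 3.22 when scaled to the junction list. Ier3, a regulator of cell survival induced by growth factors, was 1703, 1683 and 2109.8 CPM in the clones and 53.5 to 344 CPM in the tumors (median 197), and fell by 3.18 ± 0.46 (adjusted p = 0.000629). Dusp6, the phosphatase that switches ERK off, was 238, 577 and 468 CPM against 106 to 218 CPM and fell by 1.57 ± 0.33 (adjusted p = 0.00429). Spry1, of the same family as Spry2, moved the other way, from 79.5, 21.4 and 27 CPM to 108 to 306 CPM, with 282 CPM in T3-mes, a log2 difference of 2.36 ± 0.48 (adjusted p = 0.00371).

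TGF-β signaling is blocked in the medium by A83-01. Of 11 tested targets 5 rose (Tgfbi, Pmepa1, Tgfb1i1, Timp3 and Col4a1) and 1 fell, with 2 lower without tumor 3. The list summed to 659, 937 and 1276 CPM in the clones and to 1030.5 to 1868 CPM in the tumors, which overlap. Pmepa1, a feedback inhibitor of the pathway, was 22.7, 53.5 and 14.1 CPM in the clones and 196 to 363 CPM in the tumors (median 308), a log2 difference of 3.21 ± 0.47 (adjusted p = 0.00067), and 14.1 to 47.7 CPM in the 4 tumor organoids. Col4a1, a collagen of basement membrane, and Timp3 are also made by stromal cells. What part host cells or the medium had in the changes of the TGF-β, BMP and Wnt targets was not tested.

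Of 6 tested BMP targets, Id1, Id3 and Id4, inhibitors of differentiation factors, rose and Id2 fell. The BMP list summed to 261, 233 and 269 CPM in the clones and to 210 to 347 CPM in the tumors, which overlap. The call of Id2 (adjusted p = 0.0432) was lost without clone 2, without clone 3 and without each tumor but tumor 3. The clones grew with Noggin, which binds BMPs. Id1 was 0, 8.03 and 7.37 CPM in the clones and 38.7 to 97.0 CPM in the tumors (median 74.9), a log2 difference of 3.25 ± 0.48 (adjusted p = 0.000699), and 209 CPM in T3-mes. Of 8 tested Wnt targets 4 rose (Axin2, Nkd1, Lgr5 and Tnfrsf19), 4 also without clone 1 and 2 without clone 2, at low levels: Axin2, the negative regulator that the pathway itself induces, was 0, 1.07 and 2.68 CPM in the clones and 5.51 to 25.1 CPM in the tumors, a log2 difference of 2.82 ± 0.66 (adjusted p = 0.00779). Notum, another Wnt inhibitor, was 136, 11.2 and 0.447 CPM against 0.551 to 11.6 CPM and did not pass the test. The Wnt list summed to 170, 32.1 and 34.6 CPM in clones 1 to 3 and to 77.4 to 127 CPM in the tumors, so clone 1 lay above every tumor.

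Interferon-stimulated genes rose in part. Of 26 tested members 11 were higher and 0 lower, where 20.1% of all tested genes were higher. Without clone 1, 13 of 29 were higher. The median log2 difference was 1.45, with sums of 477, 344 and 243 CPM in the clones and 543 to 1124 CPM in the tumors. Ifit1, which binds foreign RNA ends, was 0, 1.61 and 1.56 CPM in the clones and 16.2 to 59.1 CPM in the tumors (median 31.4), a log2 difference of 4.29 ± 0.65 (adjusted p = 0.000841). Irf1, a transcription factor of the interferon response, was 45.4, 36.4 and 19.6 CPM against 111 to 185 CPM, a difference of 2.29 ± 0.32 (adjusted p = 0.000548). The other 15 tested members did not pass. The interferon-stimulated response element was found before 14 of 24 list genes (58.3%) and 5 of the 8 called ones, and before 3.05% of all genes. Of 10 tested MHC class I genes only B2m and H2-M3 rose (4 without tumor 3), a share close to the 20.1% of all tested genes; B2m, the shared light chain, was 261, 160.0 and 198 CPM in the clones and 299.8 to 695 CPM in the tumors, a log2 difference of 1.35 ± 0.31 (adjusted p = 0.00779). The macrophage list moved with these genes, and its part in them was not tested.

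Many genes of matrix proteases, chemokines and complement were called higher as well, where 20.1% of all tested genes were higher. Which cells made them was not tested. Of 18 tested matrix proteases and inhibitors 13 were higher and 0 lower; Mmp2, a gelatinase of fibroblasts, was 0, 0 and 2.90 CPM in the clones and 154 to 800.0 CPM in the tumors (median 297), a log2 difference of 7.68 ± 0.99 (adjusted p = 0.000357), and 235 and 142 CPM in the mes lines. Mmp7, the matrilysin of epithelia, was 136, 209 and 56.7 CPM in the clones and 0 to 157 CPM in the tumors, highest in tumor 3 and without a call. Of 16 tested chemokines 10 were higher, with sums of 409, 306 and 214 CPM in the clones, 1376 to 4036 CPM in the tumors, 1725 CPM in T2-epi and 3640.0 CPM in T1-mes. Cxcl12, which guides leukocytes, had no count in the clones and 20 to 237 CPM in the tumors, at least 205-fold higher. Cxcl5, which draws neutrophils, was 1.61 CPM in tumor 5 and 2905 CPM in tumor 3, with 148, 114 and 4.24 CPM in the clones, and did not pass the test. Of 16 tested complement and coagulation genes 10 rose and 1 fell. Their list summed to 1419, 2939 and 614 CPM in the clones. It was 642 to 3024 CPM in the tumors (median 994), which overlap, so the list as a sum did not rise. Serping1, the inhibitor of the first complement proteases, had 3 counts in the clones and 81.6 to 359 CPM in the tumors (median 182), a ratio of 416 to the pooled clones (95% exact Poisson interval 142 to 2019).

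Proliferation genes differed in few members, where 20.1% of all tested genes rose and 11.7% fell. Of 33 tested cell cycle and replication genes 2 rose, 1 fell and 30 did not pass (1 to 5 and 1 to 3 when libraries were left out in turn, most without clone 3 and clone 2), with a median log2 difference of 0.32 and sums of 2350.3, 1180.3 and 2349 CPM in the clones and 1337 to 2492 CPM in the tumors, which overlap. The epithelial organoids grown from tumors had 4846 and 3923 CPM. Mki67, a marker of cycling cells, was 90.8, 49.2 and 59.8 CPM in the clones and 97.0 to 153 CPM in the tumors, a log2 difference of 0.92 ± 0.27 (adjusted p = 0.0223). Tpx2, a spindle assembly factor, was 397, 95.8 and 135 CPM against 38.6 to 65.8 CPM and fell by 1.80 ± 0.37 (adjusted p = 0.00434), so that members of the list moved in opposite directions.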

How the data were processed

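RNA was sequenced by CEL-Seq2, which tags transcripts near their 3′ end. The deposited table holds raw read counts per gene, whole numbers that the authors made by aligning reads to GRCm38 with BWA, keeping unique hits on the gene's strand and not collapsing molecular identifiers; the submitters' processing notes also name DESeq2 1.18.0. A spike-in entry with 1 count was left out. Symbols were matched to GENCODE vM21, 17121 directly, 966 by synonym and 218 not.

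Tumors were compared with clones by edgeR 4.0.16 in R 4.3.3 (TMM, filterByExpr, quasi-likelihood test, Benjamini-Hochberg adjustment over all genes tested, threshold 0.05) and described with Python 3.11.15 and matplotlib 3.10.9. CPM use TMM factors over all 27 libraries. Among 18 pairs of libraries within a group, chi-square per gene was at least 6.92, above counting error. Promoter sequences are RefSeq's for GRCm38.p6. Named genes are, per class and direction, the 8 with the largest change among those called with and without clone 1, with at least 50 CPM in the higher group and no overlap, and members of 33 gene lists. Members and lists were chosen with earlier results of these data known. Alternatives were DESeq2 1.42.0, other scalings, filters and limits, all 27 libraries in 1 fit, summed tumors, a replicate block and leaving out libraries. Tests were checked on simulated data. Some genes, targeted ones included, are not reported here.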

Additional observations from a re-analysis of the deposited data

Results flagged for a closer look

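In 58 groups of 6 tumors, each a gene or a summed list, 11 had 1 tumor far from the other 5 by Dixon's test. Its limit flags about 1 in 20 independent groups of normally distributed values. Here groups share genes and CPM are skewed, so 11 of 58 cannot be set against that rate. Tumor 6 stood apart for Beta-s, with 6846 CPM against at most 361 CPM in the others, and with it for the erythroid list (6989 CPM against at most 364 CPM), and for the chemokine Ccl2 (2076 CPM against 813 CPM). Tumor 5 stood apart for the fast muscle genes Tnnt3 (3698 CPM, next 1218 CPM) and Myh4 (2511 CPM, next 657 CPM). Tumor 1 stood apart for adipocyte markers (1108 CPM, next 265 CPM) and for motile cilium genes (79.9 CPM, next 43.2 CPM).

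Tumor 3, with the highest sum of epithelial genes, stood apart by the same test for 3 of the genes with the largest decreases, at low levels: Khdc1a with 2.02 CPM where the others had 0, Gm3336 with 5.39 CPM (next 1.65 CPM) and Inmt with 25.6 CPM (next 9.92 CPM). Tumor 4 was highest for 2610528A11Rik with 42.5 CPM (next 13.2 CPM).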

How the results depend on the processing

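No gene chosen by the rule on size changed direction under the alternatives run, and of these Myh4 lost its call without clone 2 or clone 3, and Beta-s had no p from DESeq2, with or without clone 1. Medians of the hypoxia, cholesterol, ERK, NRF2 and ribosomal lists changed sign when scaled to the junction list, but stayed below the median of all genes, which was 3.22 there. RLE size factors and TMM over organoid genes raised the median of all genes from 0.16 to 0.29 and 0.28. Leaving out each library in turn gave 1559 to 2246 higher and 772 to 1631 lower genes, 249 to 390 higher genes not found in cultures, 617 to 925 higher and 712 to 1466 lower genes found in organoids, with 772 and 712 lower genes without clone 2, and a log2 difference of 2.80 to 5.78 for Trp53. Fitting all 27 libraries together gave 1982 lower genes, 552 higher genes not found in cultures and 1325 higher genes found in organoids. Without a filter on low counts 574 genes not found in cultures were higher. Summing tumors per deposited sample gave 751 lower genes, 495 higher and 674 lower among those found in organoids, and a limit of 30 CPM for that class 441 higher. Scaling to the junction list, chosen after seeing the data, gave 7518 higher and 68 lower genes, 5146 and 58 of them found in organoids.

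With the replicate number as a block, 1219 genes were higher and 374 lower, 312 and 351 of them found in organoids. The numbers are names only: the deviations of same-numbered clones and tumors correlated at 0.067, -0.033 and -0.137, and not every library correlated best with its own number, so that they do not pair the libraries. DESeq2 called 2447 genes higher and 1066 lower, RLE size factors 2427 and 1103, and tumors 1 to 4 alone 1610 and 982. The fits of tumors 1 to 4 and of DESeq2 without clone 1, and the folds with a tumor left out, were also chosen after seeing the data. The cause of these shifts was not tested. The depth of clone 1 limits what can be said of genes below 34.1 CPM in it.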

Other observations

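Some further gene groups were measured in the same libraries, where 20.1% of all tested genes rose and 11.7% fell. Of 19 tested immediate early genes, which cells switch on within minutes of a stimulus or of handling, 7 rose (Jun, Egr2, Nr4a1, Klf2, Socs3, Myc and Ier5; 3 without clone 3) and Fos fell. Jun was 125, 116 and 111 CPM in the clones and 374 to 882 CPM in the tumors (median 677), a log2 difference of 2.51 ± 0.33 (adjusted p = 0.000373), whereas Fos, its partner in AP-1, was 125, 169 and 139 CPM against 9.14 to 56.8 CPM and fell by 2.50 ± 0.52 (adjusted p = 0.00436). Jun was 67.1 and 58.8 CPM in the epithelial and 375 and 903 CPM in the mesenchymal tumor organoids.

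Of 16 tested NRF2 and glutathione genes 4 fell (Me1, G6pdx, Gstm1 and Tkt) and 0 rose, where 11.7% of all tested genes fell. Without clone 3, 2 fell. The median log2 difference was -0.90 against 0.16 over all genes, and 1.87 against 3.22 when scaled to the junction list. Me1, the malic enzyme that makes NADPH, was 852, 817 and 872 CPM in the clones and 79.0 to 183 CPM in the tumors (median 112) and fell by 2.86 ± 0.29 (adjusted p = 0.000121). Of 45 tested ribosomal protein genes 16 fell and 1 rose, and 7 to 10 fell without clone 1, clone 3 or tumor 1, 2 or 3. Their median was -0.39, and 2.73 under that scaling, again below the 3.22 of all genes. Rpsa, which rose, was 466, 1111 and 897 CPM in the clones and 2049.9 to 3861 CPM in the tumors, and like many of this family it has pseudogenes that can take its reads.

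Motile cilium genes were low in both groups, with sums of 11.4, 16.1 and 3.80 CPM in the clones, 21.2 to 79.9 CPM in the tumors and 12.2 to 386 CPM in organoids with no edits, and Tppp3 was the only member tested and higher (11.8 to 44.6 CPM in the tumors). Of 2 tested Schwann cell genes 1 rose, Pmp22, with 33 to 108 CPM in the tumors, no count in the clones and 47.1 and 63.6 CPM in the mesenchymal tumor organoids. The only lymphatic endothelial gene tested, Lyve1, which some macrophages also carry, rose (8.42 to 33.6 CPM in the tumors, at 0 in the clones), and of 2 tested erythroid genes only Beta-s rose.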
